A study of Caenorhabditis elegans with 2 samples.

Results

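Insulin-like and neuropeptide genes of Caenorhabditis elegans were examined for binding of GMEB-1, a SAND-domain protein related to the mammalian glucocorticoid modulatory element binding proteins. The genes were the protein-coding genes whose symbols begin with ins-, flp- or nlp- in the Ensembl annotation of the genome. They numbered 140 of 19973 protein-coding genes, with 38 ins- genes, 31 flp- genes and 71 nlp- genes. Binding of an eGFP-tagged GMEB-1 was mapped by ChIP-seq in whole L2 larvae of pooled sexes. There was 1 group, made of 2 biological replicates of strain OP343, which carries the transgene wgIs343 and the mutation unc-119(ed3) on III. Both replicates share this genotype, no untagged strain or other stage was analysed here, the age is labelled unknown, and no label used here names the promoter of the transgene. The deposited files list regions and not reads, so the depth is unknown.

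The ins- genes encode insulin-like peptides, small secreted ligands of the DAF-2 receptor that act on dauer formation, growth and life span. The flp- genes encode FMRFamide-like peptides, and the nlp- genes encode the other neuropeptide-like proteins. These precursors are cut by proprotein convertases and stored in dense-core vesicles, and most of the mature peptides act on G protein-coupled receptors. Many members are transcribed in a small number of neurons, and some nlp- genes are transcribed in the epidermis or intestine. Chromatin of whole larvae sums over all tissues, so binding in few cells and weaker binding in many cells cannot be told apart.

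A gene was called bound when the summit of a region lay between 1000 bp upstream and 200 bp downstream of any of its transcript starts. The regions were the 3909 of the deposited optimal list, selected by the irreproducible discovery rate (IDR). A region of this list can rank low in 1 replicate's own list. Each region carries a signal set by the authors' caller, and rank 1 is the highest signal within a list. The windows of 101 bp around 6 promoter summits are shown here because the results turn on them. ins-39 and ins-35 are bound, flp-18, nlp-76 and flp-23 rank far higher in 1 replicate's own list than in the other or are listed in 1 alone, and nlp-29 is the member of an epidermal cluster with the highest rank in replicate 2. Each window is read 5′ to 3′ on the strand of the gene in build WBcel235 (ce11), and capitals mark a match to ACGT, 1 of 5 short sequences searched on both strands.
ins-39 (IDR list, chrX:1345022-1345122, minus strand): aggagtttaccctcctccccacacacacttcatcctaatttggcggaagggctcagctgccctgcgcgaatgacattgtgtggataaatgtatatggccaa
ins-35 (IDR list, chrV:20374670-20374770, plus strand): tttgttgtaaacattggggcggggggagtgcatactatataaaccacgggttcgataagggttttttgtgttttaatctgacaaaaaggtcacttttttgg
flp-18 (replicate 1, chrX:3018624-3018724, minus strand): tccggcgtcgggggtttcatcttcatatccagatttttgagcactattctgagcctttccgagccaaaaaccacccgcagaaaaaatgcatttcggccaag
nlp-76 (replicate 1, chrX:12663908-12664008, minus strand): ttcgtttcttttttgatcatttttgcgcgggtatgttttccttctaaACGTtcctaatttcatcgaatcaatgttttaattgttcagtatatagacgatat
flp-23 (replicate 2, chrIII:8650377-8650477, plus strand): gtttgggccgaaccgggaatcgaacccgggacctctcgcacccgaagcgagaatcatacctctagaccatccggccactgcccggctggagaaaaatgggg
nlp-29 (replicate 2, chrV:3984300-3984400, plus strand): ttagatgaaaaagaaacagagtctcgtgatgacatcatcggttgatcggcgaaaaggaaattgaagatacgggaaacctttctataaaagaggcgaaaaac

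Of the 140 insulin-like and neuropeptide genes, 3 were bound, which is 2.14%. The share of all protein-coding genes bound was 16.4%. The bound members were ins-39, ins-35 and nlp-4. By family, 2 of 38 ins- genes (5.26%), 0 of 31 flp- genes and 1 of 71 nlp- genes (1.41%) were bound. The difference from the other genes and the differences between the families were not tested, since the members were chosen with results of these data known.

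The strongest region in a member promoter lay upstream of ins-39, an insulin-like gene on the minus strand of X (1343758-1344421). Its IDR summit was at position 1345072, 651 bp upstream of the start, with a signal of 313.1 and rank 325 of 3909. The signal was 60.89 in replicate 1, at rank 28 of 28693, and 250.9 in replicate 2, at rank 401 of 30000. The scale of the signal differs between the replicates, so ranks and not signals are set side by side. The summits of the replicates lay 633 and 646 bp upstream, 13 bp apart. The summit was intergenic, in a gap of 13349 bp to the next protein-coding gene upstream, and it lay in the promoter window of no other protein-coding gene. Of all members, ins-39 had the highest rank in each replicate's list.

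ins-35 is an insulin-like gene on the plus strand of V (20375536-20376302), and its product is a DAF-2 ligand of the intestine that acts against dauer formation. Its IDR summit was at position 20374720, 816 bp upstream, with a signal of 54.03 and rank 2624. In replicate 1 the summit was 837 bp upstream with a signal of 7.734 and rank 2876. In replicate 2 it was 818 bp upstream with a signal of 44.79 and rank 2913, and a weaker region of rank 15279 lay 248 bp upstream. The replicates thus placed the stronger region 19 bp apart and at similar ranks. This summit too was intergenic and in the window of no other protein-coding gene, in a gap of 6282 bp.

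nlp-4, a neuropeptide-like gene on the minus strand of I (10517321-10518055), had an IDR summit 62 bp upstream of its start at position 10518117. The signal was 74.48, at rank 1778. In replicate 2 the region had a signal of 70.1 and rank 1673, with the summit 50 bp upstream. In replicate 1 it had a signal of 3.407 and rank 14733, with the summit 128 bp upstream and a deposited −log10 q of 1.28, where the highest value in that list is 3.53. Replicate 1 thus listed the region far from its top. The gap to the next gene upstream is 323 bp, and the summit also lay in the promoter window of that divergent neighbour, exos-3, which encodes a subunit of the RNA exosome. Which gene the region belongs to cannot be told apart from these files. A stronger IDR region (signal 221, rank 506) lay 826 bp downstream of the nlp-4 start, beyond the end of the gene and within 100 bp of the small nucleolar RNA gene F59C6.15. It had rank 109 in replicate 1 and rank 536 in replicate 2.

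**Figure D1:**
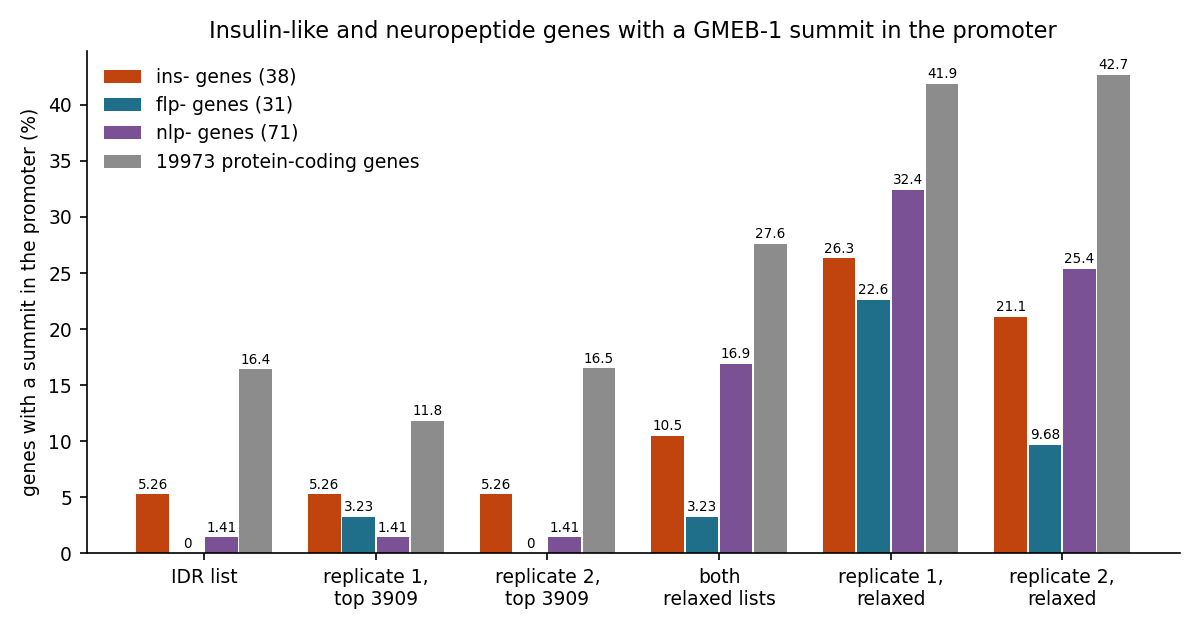
Bars give the percentage of ins- genes, flp- genes, nlp- genes and all protein-coding genes whose promoter window held a summit, for the IDR list, for the 3909 highest-ranked regions of each replicate and for the relaxed lists. In the IDR list the bars stand at 5.26% for ins- genes, 0% for flp- genes and 1.41% for nlp- genes, against 16.4% for all protein-coding genes.

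The count depended on how wide the promoter was drawn and on which list was used. With 500 bp upstream and 100 bp downstream, nlp-4 alone was bound, against 13.3% of all protein-coding genes. With 2000 bp upstream and 500 bp downstream, 8 members were bound (5.71%), against 20.8% of all protein-coding genes. The 5 added members were nlp-12, which encodes a cholecystokinin-like peptide, nlp-24, nlp-36, nlp-71 and nlp-76, so the count gained nlp- genes and no ins- or flp- gene. In the strongest 1954 IDR regions ins-39 and nlp-4 remained, against 10.2% of all protein-coding genes. The 3909 highest-ranked regions of replicate 2 held the same 3 members, against 16.5% of all protein-coding genes. Those of replicate 1 held 4 members, ins-39, ins-35, flp-18 and nlp-76, against 11.8% of all protein-coding genes. nlp-4 was not among them.

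Most members lay far from any IDR summit. The median distance from a transcript start to the nearest summit was 16.7 kb for the members and 8.48 kb for all protein-coding genes. It was 22 kb for ins- genes, 17.4 kb for flp- genes and 13.2 kb for nlp- genes. Within 1000 bp lay 5 members (3.57%) and 17.4% of all protein-coding genes. Beyond 20 kb lay 62 members (44.3%) and 25.6% of all protein-coding genes. Distances ran from 544 to 49924 bp in ins- genes, from 1629 to 58358 bp in flp- genes and from 62 to 104156 bp in nlp- genes, where nlp-17 was the farthest. No flp- gene had a summit within 1000 bp, whereas 4 ins- genes and 1 nlp- gene did.

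**Figure D2:**
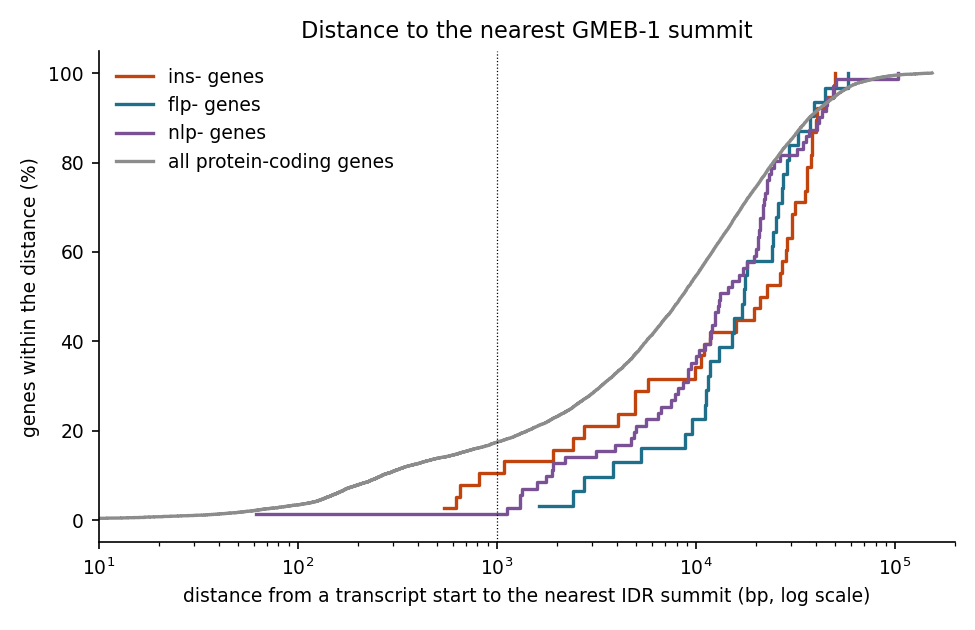
Lines give the cumulative percentage of genes (vertical axis) whose nearest IDR summit lies within a distance of a transcript start (horizontal axis, bp, log scale), for the 3 families and for all protein-coding genes. The flp- line starts at 1629 bp, and at 1000 bp 3.57% of all members against 17.4% of all protein-coding genes have a summit.

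The ins- genes nearest to a summit outside the promoter window had it downstream of the start. The summit nearest to ins-13 was 544 bp downstream (signal 93.6, rank 1370), beyond the gene and 47 bp from the start of the small nuclear RNA gene sls-2.3. For ins-11, an intestinal insulin-like gene studied in pathogen avoidance, it was 623 bp downstream (signal 57.16, rank 2454). For ins-37 it was 1092 bp downstream (signal 114.6, rank 1090) and 61 bp from the start of the non-coding RNA gene F08G2.12. For ins-17 it was 1914 bp downstream with a signal of 486 and rank 160, in the promoter windows of ifet-1, a translation regulator, and rps-1, a ribosomal protein gene. That summit also lay inside the non-coding RNA gene F56F3.10 and 1 bp from the start of another, F56F3.11. The summits at ins-13, ins-37 and ins-17 thus lay beside or inside non-coding RNA genes, and that at ins-11 lay 2258 bp from the nearest one. The share of all IDR summits beside such genes was not computed.

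Of the 6 flp- genes nearest to a summit, 5 had it in the promoter window of a gene outside the families. The summit 2419 bp downstream of the start of flp-1, whose loss gives exaggerated body bends, lay in the windows of aly-2, daf-10 and rpb-12 (signal 81.16). That 2740 bp downstream of flp-16 lay in the window of romo-1 (signal 412.7, rank 216), a mitochondrial protein gene. That 5311 bp upstream of flp-14 was among the strongest of the IDR list (signal 980.2, rank 22) and lay in the window of cox-5A, a subunit of cytochrome c oxidase. A summit in the window of W07E11.1 was the nearest to both flp-28, 3834 bp downstream, and flp-3, 8832 bp downstream (signal 58.46). The summit 1629 bp downstream of flp-23 lay in no promoter window (signal 44.87, rank 3301).

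The nlp- genes nearest to a summit, apart from nlp-4, had it mostly upstream. nlp-36 had it 1120 bp upstream near the bottom of the IDR list (signal 39.35, rank 3822), and its region reached into the promoter window. nlp-24, which encodes opioid-like peptides, had it 1338 bp upstream (signal 47.2, rank 3114), in no promoter window. nlp-76 had it 1310 bp upstream (signal 65.07, rank 2094), in an intron of the nuclear receptor gene nhr-17 and 15 bp from the start of a tRNA gene. The summits of the next genes lay in promoters of other genes. That 1313 bp upstream of nlp-12 lay in the window of emr-1 (signal 71.4, rank 1865), which encodes emerin. That 1764 bp upstream of nlp-71 was strong (signal 504.5, rank 145) and lay in the window of exos-2, another exosome subunit. That 1590 bp downstream of nlp-1 lay in the window of aex-4 (signal 68.13).

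Over all members, the nearest IDR summit lay in the promoter window of a gene outside the 3 families for 96 of 140 (68.6%) and in no promoter window for 42. One of these summits lay in windows of both kinds, that of nlp-4. Members of a cluster can share a nearest summit, so these are counts of members and not of separate summits. The same shares were not computed for all protein-coding genes. The protein-coding genes next to the members were bound at the share of all genes, with 37 of 226 bound (16.4%). At least 1 bound neighbour outside the families was found for 32 members, and 30 of these 32 were not bound themselves. The same counts were not made for all protein-coding genes, and over all members only 3 of 140 were bound. The members' spacing and chromosomes are given beside these counts. Their median distance to the next gene upstream was 2.52 kb (1.93 kb for ins-, 5.18 kb for flp- and 2.29 kb for nlp- genes), against 0.937 kb for all protein-coding genes. With under 1000 bp upstream, 1 of 35 members (2.86%) and 20.9% of all protein-coding genes were bound. With 1000 bp or more, 2 of 105 members (1.9%) and 11.5% of all protein-coding genes were bound. The share was lower in members on both sides of this distance. On X lay 34 members (24.3%), 13 of them flp- and 19 nlp- genes, against 13.7% of all protein-coding genes, and 12.1% of the genes on X were bound, against 16.4% over all chromosomes. At each chromosome's own share of bound genes the members would hold 22.6 bound genes, and at the share over all chromosomes 22.9, where 3 were found. The part of gene spacing in the low count was not tested beyond these values.

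The relaxed list of each replicate also holds regions below any threshold, among them background, and describes weaker signal. In replicate 1's relaxed list 40 members (28.6%) had a promoter summit, against 41.9% of all protein-coding genes. In that of replicate 2 there were 29 (20.7%), against 42.7% of all protein-coding genes. Both lists named 17 members (12.1%), against 27.6% of all protein-coding genes. Either list named 52 (37.1%), against 57% of all protein-coding genes, and 88 members (62.9%) were in neither. The pooled relaxed list held 31 members (22.1%), against 42.7% of all protein-coding genes. Among these 31, flp-16, nlp-52 and nlp-80 were in neither replicate's list.

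The families are given apart, without a test. In replicate 1 there were 10 ins- genes (26.3%), 7 flp- genes (22.6%) and 23 nlp- genes (32.4%). In replicate 2 there were 8 ins- genes (21.1%), 3 flp- genes (9.68%) and 18 nlp- genes (25.4%). In both there were 4 ins- genes, 1 flp- gene and 12 nlp- genes. The 17 shared members are 42.5% of those in replicate 1's list and 58.6% of those in replicate 2's, against 65.9% and 64.6% for all protein-coding genes. The summits of a shared member lay 6 to 849 bp apart, with a median of 153 bp, and 8 of the 17 pairs lay within 100 bp.

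The ranks of the listed members were set beside those of all listed genes. The median of the best rank per gene was 13218.5 for members and 9608.5 for all protein-coding genes in replicate 1, and 10909 for members and 5784 for all protein-coding genes in replicate 2. Of the listed members, 4 of 40 (10%) in replicate 1 and 3 of 29 (10.3%) in replicate 2 were among the 3909 highest-ranked regions. The shares of all listed genes were 28.3% in replicate 1 and 38.6% in replicate 2. Only ins-39 and ins-35 were among the 3909 highest-ranked regions of both replicates.

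**Figure D3:**
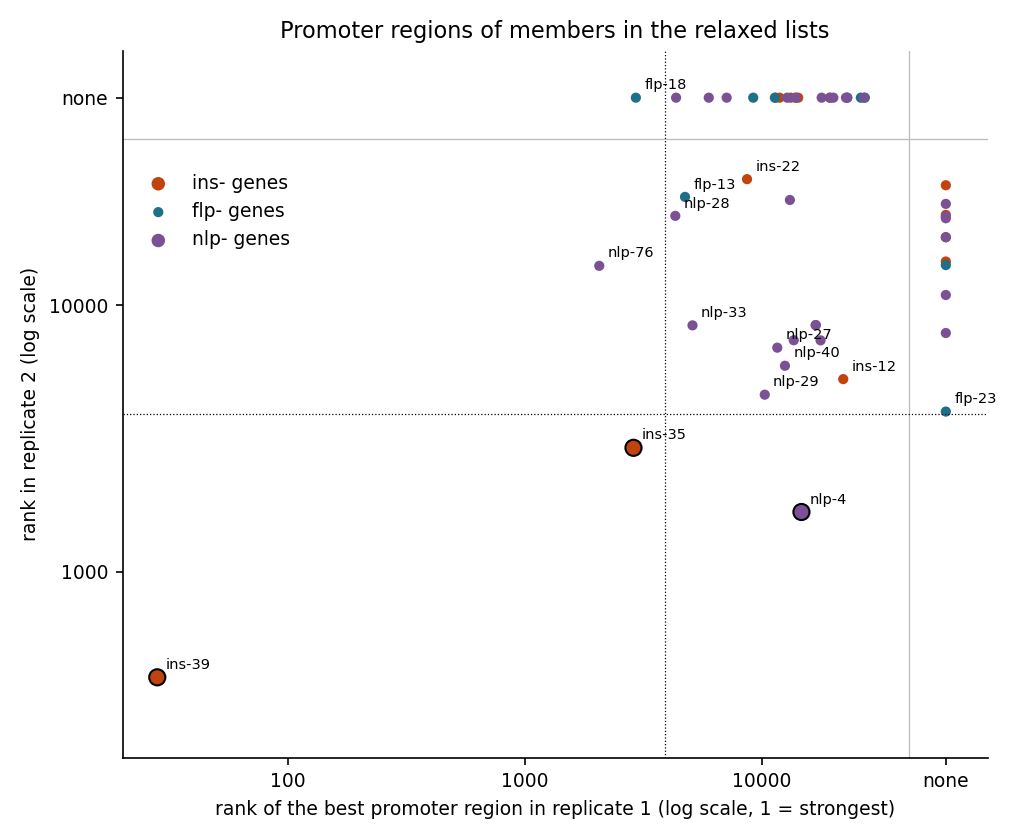
Points give each member's best promoter rank in replicate 1 (horizontal axis) and replicate 2 (vertical axis) on log scales, with members listed in 1 replicate only in the margins marked none, dotted lines at rank 3909 and black outlines for bound members. ins-39 stands at ranks 28 and 401, and most of the 17 shared members lie beyond the dotted lines on both axes.

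Several members ranked high in 1 replicate and low or not at all in the other. flp-18, which encodes ligands of neuropeptide Y-like receptors, had rank 2943 in replicate 1 (signal 7.643, at the centre of the window printed above) and no promoter summit in replicate 2. flp-23 had rank 3984 in replicate 2 (signal 34.69, 340 bp upstream), inside a tRNA gene, and none in replicate 1. nlp-76 had rank 2062 in replicate 1 (55 bp upstream) and rank 14036 in replicate 2 (133 bp upstream). nlp-28 had rank 4320 in replicate 1 and rank 21614 in replicate 2, with summits 6 bp apart. flp-13, a peptide gene of stress-induced sleep and the only flp- gene in both lists, had rank 4747 in replicate 1 and rank 25458 in replicate 2, with summits 343 bp apart. nlp-17 had rank 4352 in replicate 1 alone, and this summit also lay in the promoter window of seld-1, a gene outside the families. None of these 6 genes was bound in the IDR list.

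Other ins- genes in the relaxed lists ranked low in at least 1 replicate. ins-12 had rank 22119 in replicate 1 (679 bp upstream) and rank 5273 in replicate 2 (896 bp upstream). ins-22, often used as a tagged reporter of dense-core vesicles, had rank 8677 in replicate 1 (127 bp downstream) and rank 29677 in replicate 2 (124 bp upstream). ins-16, ins-21, ins-27, ins-32, ins-34 and ins-4 were in replicate 1's list alone, and ins-10, ins-11, ins-36 and ins-37 in that of replicate 2 alone. The summit of ins-37 in replicate 2 lay within 100 bp of a small nuclear RNA gene. The insulin-like genes form 7 clusters, and none of their members was bound, against 16.4% of all protein-coding genes. The 7 genes on I (ins-24 to ins-30) and the 5 on II (ins-2 to ins-6) each had 1 gene in replicate 1's relaxed list and 0 in that of replicate 2, where the shares of all protein-coding genes were 41.9% and 42.7%. Of ins-11, ins-12 and ins-13 on II, 1 was in replicate 1's list and 2 in that of replicate 2. Of ins-21, ins-22 and ins-23 on III, 2 were in replicate 1's list and 1 in that of replicate 2. The 3 pairs ins-19 and ins-31, ins-14 and ins-15, and ins-7 and ins-8 had 0 in either list.

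The genes nlp-24 to nlp-34, several of which encode epidermal antimicrobial peptides such as nlp-29, induced by fungal infection, made up 8 of the 12 nlp- genes found in both relaxed lists. This grouping was made after its values were seen, so it is a description. Of these 11 genes, 10 were in replicate 1's list, 8 in replicate 2's list, 8 in both and 0 in the IDR list. The shares of all protein-coding genes were 41.9% in replicate 1's list, 42.7% in replicate 2's list, 27.6% in both and 16.4% in the IDR list. Of the other 60 nlp- genes, 13 were in replicate 1's list, 10 in replicate 2's, 4 in both and 1 in the IDR list. In the cluster of 6 such genes on V (nlp-34, nlp-31, nlp-30, nlp-29, nlp-28 and nlp-27), 5 genes were in the lists of both replicates, and nlp-34 and nlp-31 share 1 region between them. nlp-29 had rank 10311 in replicate 1 (277 bp upstream) and rank 4610 in replicate 2 (75 bp upstream, the window printed above). nlp-27 had rank 11645 in replicate 1 and rank 6919 in replicate 2, with summits 55 bp apart. nlp-33, which lies outside this cluster on V, had rank 5106 in replicate 1 and rank 8391 in replicate 2, with summits 414 bp apart. Its replicate 1 summit lay in a coding exon and also in the promoter window of T19C4.24, a gene outside the families. The nearest IDR summit was 40564 bp from the start of nlp-29.

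**Figure D4:**
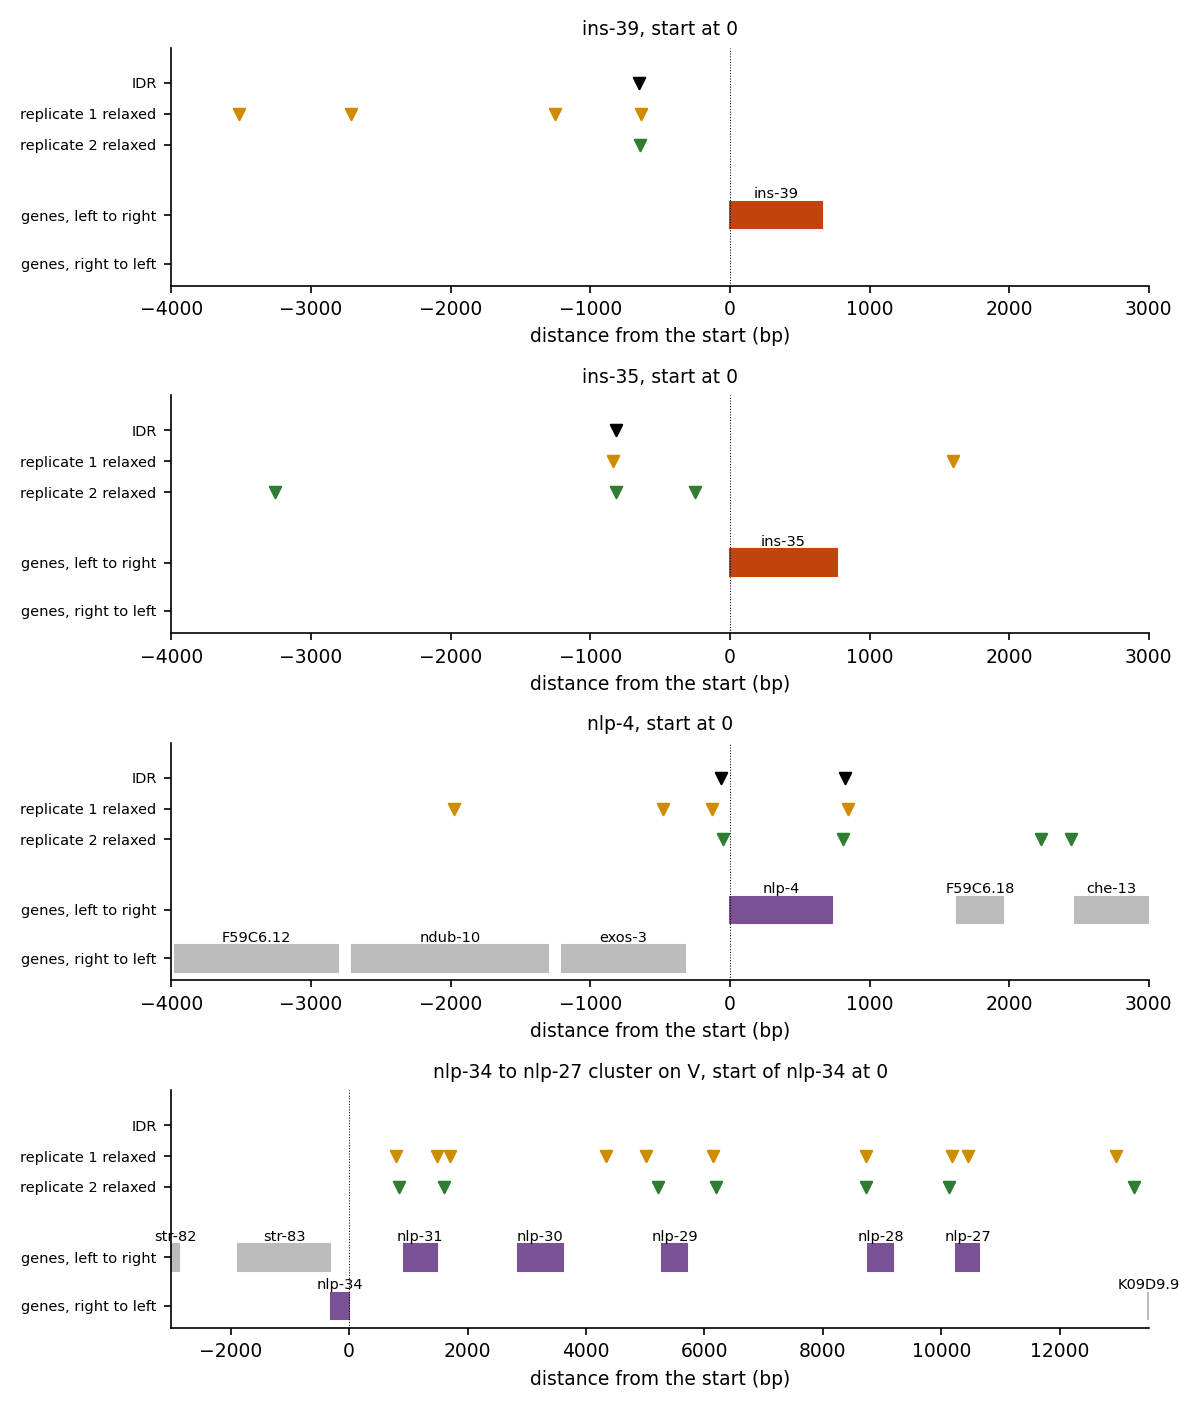
Triangles mark the summits of the IDR list and of each relaxed list by distance from the gene start (horizontal axis, bp). Boxes mark protein-coding genes by strand. The loci are ins-39, ins-35, nlp-4 and the nlp-34 to nlp-27 cluster. At ins-39, ins-35 and nlp-4 positive values run in the direction of transcription of the gene named. In the cluster panel they run along the plus strand, against the transcription of nlp-34. The 3 lists place a summit at about the same position upstream of ins-39 and ins-35, and the cluster has summits in both relaxed lists and none in the IDR list.

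A set of 27 well-studied members was also looked at. Of these, 1 (ins-35) was bound, 9 were in replicate 1's relaxed list, 7 in that of replicate 2 and 17 in neither. The shares of all protein-coding genes were 16.4% bound, 41.9% in replicate 1's list and 42.7% in that of replicate 2. In at least 1 of these lists were 57% of all protein-coding genes, which is the opposite count to the 17 members in neither. The distances of the 27 members to the nearest IDR summit ran from 623 to 48691 bp, with a median of 12 kb, against 8.48 kb for all protein-coding genes. The DAF-2 agonist genes ins-4 and ins-6 lay 30469 and 26399 bp from it, ins-3 of the same cluster 36067 bp, and ins-7 5722 bp. The antagonist genes ins-1 and ins-18 lay 2406 and 11732 bp from it. None of these 6 was bound. Among sleep and arousal peptides, flp-11 lay 15626 bp, flp-13 11483 bp, nlp-22 22810 bp and nlp-49 48691 bp from the nearest IDR summit. The NPR-1 ligand gene flp-21 lay 11299 bp from it, and flp-7, flp-20 and flp-2 lay 44549, 11810 and 11092 bp from it. nlp-3, nlp-7, nlp-9 and nlp-14 lay between 12047 and 24642 bp from it. nlp-40, an intestinal peptide of the defecation cycle, lay 1922 bp upstream of an IDR summit of rank 19. Its promoter summits had rank 12549 in replicate 1 and rank 5919 in replicate 2. The summit in replicate 1 also lay in the promoter window of homt-1, a gene outside the families.

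Genes that make, release or receive these peptides were counted by group. Of 12 insulin signalling genes, 2 were bound (16.7%, against 16.4% of all protein-coding genes), among them akt-2, a protein kinase (signal 65.82, 686 bp upstream). Of 19 genes of peptide processing and dense-core vesicles, 3 were bound (15.8%). These were ric-19, a vesicle maturation factor (signal 508.2, rank 142, 182 bp upstream), unc-108, the RAB-2 GTPase (signal 120, 508 bp upstream), and aex-5, a proprotein convertase (signal 44.13, 8 bp upstream). In the relaxed lists of replicates 1 and 2, ric-19 had ranks 1122 and 135, and unc-108 had ranks 982 and 1007. The promoter of aex-5 had rank 20682 in replicate 1 and no summit in replicate 2. The convertase gene egl-3 was not bound. Of 104 peptide receptor genes, 1 was bound (0.962%), frpr-14 (signal 52.34, 439 bp upstream). The promoter of frpr-14 had rank 11234 in replicate 1 and rank 2688 in replicate 2. Of 8 peptide genes whose symbols fall outside the rule, 0 were bound. Among these, the insulin-like gene daf-28 lay 59701 bp from the nearest IDR summit, and pdf-1 had a promoter summit in replicate 2's relaxed list alone. In the relaxed lists of replicates 1 and 2 stood 75% and 83.3% of the insulin signalling genes, 52.6% and 36.8% of the vesicle genes and 23.1% and 21.2% of the receptor genes, against 41.9% and 42.7% of all protein-coding genes. Differences between these groups were not tested.

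Short sequences known from earlier results of these data were counted in the promoters, from 250 bases before to 50 after the start, on both strands. They were picked from results of these same data and the members were known to be seldom bound, so the shares are a description. ACGT was found in 52.9% of member promoters, 50.5% of all promoters of that length and 26.1% of the 101 bp windows at IDR summits. ACGCAG was found in 2.86% of member promoters, 8.23% of all promoters and 14.1% of IDR windows. GAGCGC was found in 1.43% of member promoters, 5.45% of all promoters and 12.4% of IDR windows. ACGCGC was found in 2.14% of member promoters, 5.92% of all promoters and 12.3% of IDR windows. GAGAGA was found in 20% of member promoters, 21.8% of all promoters and 22.3% of IDR windows. The summit windows are shorter than the promoters. The median GC content of member promoters was 37%, against 34.3% in all promoters and 43.6% in the IDR windows. Of the windows printed above, that of nlp-76 held ACGT and the others held none of the 5 sequences. The window at the IDR summit of nlp-4, the bound member not printed above, also held ACGT. A match is a description of the letters and not a binding site.

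The endogenous locus of gmeb-1 and the locus of the mutant gene do not lie beside any member. The position of the transgene wgIs343, which carries the tagged copy, was not examined. gmeb-1 itself is on II, and the nearest member, ins-19, lies 3104 kb away. The nearest member to unc-119 on III, nlp-68, lies 363.5 kb away.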

How the data were processed

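The authors' deposited lists of regions (narrowPeak layout, build ce11) were used for 2 replicates of eGFP-GMEB-1 ChIP-seq in L2 larvae. Per the readme deposited with the samples, each replicate's relaxed list was called against a control, the pooled list from both replicates, and the IDR list from these. The caller, aligner, IDR threshold and read depth are not stated in these sources. The signal of each region was deposited as the authors' caller gave it, and it was compared within a list only. The −log10 q values the authors deposited were at a ceiling of 4.09 in every IDR region, so they were not used for ranking. The 3909 IDR regions had signals of 38.69 to 2077.

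Genes, transcript starts and their biotypes came from Ensembl release 115 (WBcel235), and sequences from the RefSeq genome of the same build. All transcripts of a protein-coding gene counted. Coordinates are 1-based. Distances are from the nearest transcript start of a gene. Members of a family whose neighbouring starts lay within 10 kb formed a cluster. Members and lists were chosen with earlier results of these data known, so no list was tested and no p-value is given. Named genes were the bound members, the 6 nearest to an IDR summit and the 4 best ranked in both replicates per family, members bound in an alternative, daf-28, bound pathway genes and the 27 well-studied members. Of the bound pathway genes, 1 is not reported here. The peptide receptor list was written as symbol patterns and names. In the list of peptide genes outside the rule, the name flr-2 matched no symbol. Alternatives were other promoter widths, lists, starts and overlap rules. Counting protein-coding transcripts alone was added after seeing the data. Scripts were tested on simulated summits. Python 3.11.15, numpy 2.4.6, pandas 2.3.3, scipy 1.17.1 and matplotlib 3.10.9 were used.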

Additional observations from a re-analysis of the deposited data

How the results depend on the processing

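The number of bound members was 3, and 1 with the narrower promoter, 8 with the wider one and 31 in the pooled relaxed list, so the count rests on the window and the list. It was 3 to 4 when 1 replicate's own highest-ranked regions replaced the IDR list, with nlp-4 absent in replicate 1. With the 5′-most start, the nearest start or protein-coding transcripts alone it was 3, against 15.3%, 12.1% and 16.3% of all protein-coding genes. With region overlap it was 4, against 17.2% of all protein-coding genes. The relaxed counts were 12 in replicate 1 (main 40) and 14 in replicate 2 (main 29) for the 10000 highest-ranked regions. In replicate 1 they were 20 with the narrower and 62 with the wider promoter, and in replicate 2 they were 22 and 41. The counts of all protein-coding genes at these settings were not computed, so the counts are not set against a share. The median distance to an IDR summit was 16.7 kb, 25.7 kb for the strongest 1954 regions, and 14.6 to 15.2 kb for the replicates' own highest-ranked regions. For all protein-coding genes it was computed with the full IDR list (8.48 kb) and not with these alternatives. The order of the families changed with the setting. The bound shares were 5.26% of ins- and 1.41% of nlp- genes, but 0% and 1.41% with the narrower promoter and 5.26% and 8.45% with the wider one. In replicate 1's highest-ranked regions flp- genes stood at 3.23% and nlp- genes at 1.41%. With 1000 bases before to 200 after the start, ACGCAG was found in 10% of member promoters and 23.9% of all promoters, GAGCGC in 9.29% and 16.7%, ACGCGC in 10.7% and 15.8%, GAGAGA in 41.4% and 50.9%, and ACGT in 93.6% and 91.7%. No paired analysis was possible because there was 1 group. Depth is unknown, so a promoter without a region cannot be told apart from one too weak to be listed. Only 2 replicates of 1 tagged strain were available, and no untagged control was analysed here.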
